A study of Mus musculus with 4 samples.

Results

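CD103int DC, dendritic cells (DC) with an intermediate level of the integrin CD103 and with CD11b, were compared with the CD103+ conventional DC of type 1 (cDC1), both sorted from tumours of EO771 cells, a murine breast cancer line. The comparison took every gene of the deposited table with a value of at least 10 in the higher of the 2 libraries. This left 8443 of 13976 genes, and all gene classes are described below. The labels name these as the CD103intCD11b+ DC and the CD103+ cDC1, and 2 further libraries, CD11b+ cDC2 and macrophages, serve only to place values. The name of the macrophage column begins differently from those of the DC, for reasons the labels do not give, which bears on every placement against macrophages. Nothing in the labels gives the mouse strain, genotype, age or number of animals, the cells a library was made from, the gates of the sort, or whether mice received the heterodimeric interleukin-15 that the series title names. Each population had 1 library, so no difference was tested and none carries a replicate error.

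Conventional DC of type 1 depend on the transcription factors IRF8 and BATF3, take up dead cells through receptors such as CLEC9A and display their antigens on MHC class I to CD8+ T cells. In tumours they are drawn in by the chemokine XCL1 through XCR1 and grow under the cytokine FLT3L. DC that carry CD11b rely more on IRF4, and many of their surface genes are shared with monocytes and with cells that descend from monocytes in inflamed tissue. The genes below are ordered by role, from lineage and receptors to secreted products, metabolism and responses.

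Values are counts per 1000000 (CPM) on library sizes scaled by the authors. Where 4 values are given they run in the order cDC1, cDC2, CD103int DC, macrophage. A fold is the ratio of the CD103int DC value to the cDC1 value or its inverse, with the 95% interval from counting error in brackets. A difference is on the log2(CPM + 1) scale, CD103int DC minus cDC1, and "at least 4-fold" or "at least 2-fold" means a difference of 2 or 1 on that scale. These intervals treat amplified reads as independent molecules and leave out animals, sorts and library making.

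Of the 8443 genes, 235 (2.78%) were at least 4-fold higher in CD103int DC and 155 (1.84%) at least 4-fold lower. At least 2-fold, 773 (9.16%) were higher and 461 (5.46%) lower, which left 7209 within 2-fold, called level below. The median difference over all genes was 0.03. Every class count below is to be read beside these shares, at 2-fold 9.16% higher and 5.46% lower. Among the 235 higher genes, 224 were lowest in cDC1 of all 4 libraries, while the highest value was in CD103int DC for 82, in cDC2 for 53 and in macrophages for 100. Among the 155 lower genes, 153 were highest in cDC1. Choosing genes by their difference from cDC1 largely fixes both counts for cDC1, so these are no separate result. In CD103int DC, 198 of the 235 higher genes and 131 of the 155 lower genes lay within 2-fold of their cDC2 value. Within 2-fold of their macrophage value lay 118 of the higher and 127 of the lower genes. The same shares over all genes compared were not counted. At the minimum, Polr2i (9.994 CPM) and Snhg15 (9.997 CPM) stood just outside and Mphosph9 and Tgm1 (10.01 CPM each) just inside.

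**Figure D1:**
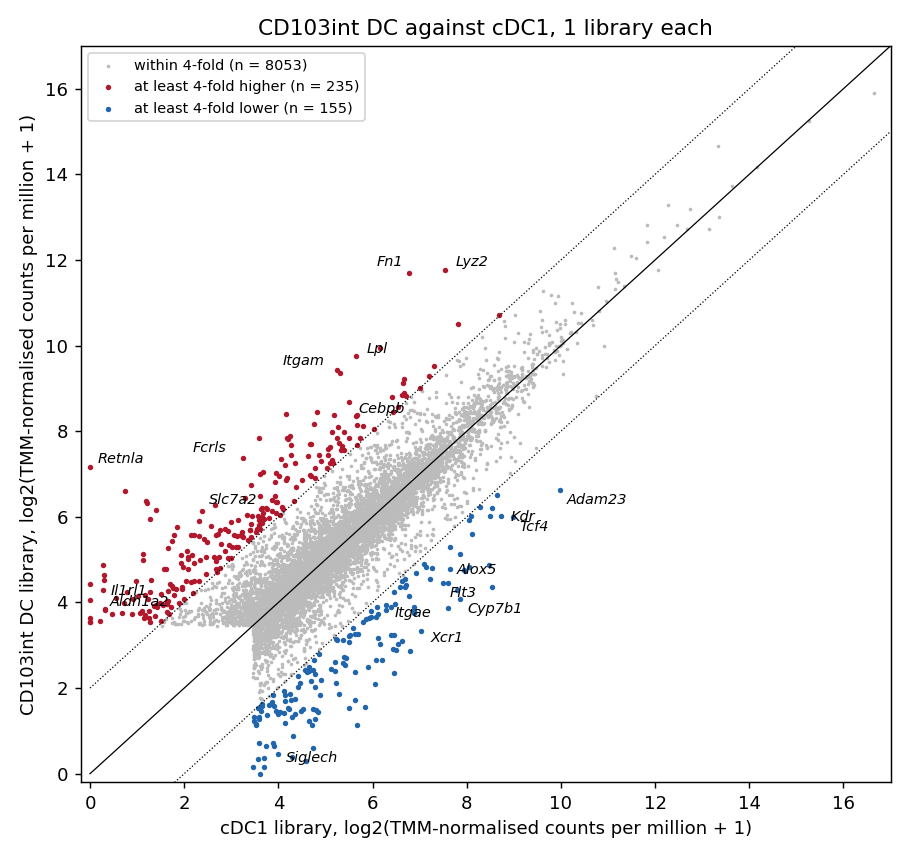
Values of the genes compared in the cDC1 library (x axis) and the CD103int DC library (y axis), both as log2(CPM + 1), with 1 point per gene. The solid line marks equal values and the dotted lines 4-fold, and 235 genes (red) lie above and 155 (blue) below them.

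RNA content differed between the libraries. Reads of Gm26917 and Gm42418, entries known to gather reads of ribosomal RNA, took 12.5% of the cDC1 total and 7.08% of the CD103int DC total, and mitochondrial genes 7.34% and 6.61%. The cDC1 library listed 454 genes at 0, against 19 in cDC2, 10 in CD103int DC and 20 in macrophages. Why cDC1 stood apart was not tested, and each gene listed at 0 in cDC1 below is to be read beside this. With both columns scaled to equal totals of protein-coding genes, the median over all genes moved from 0.03 to -0.15. The differences of genes named below shifted by -0.18 to -0.08, and class medians by -1.65 to -0.01. The 2-fold split then became 610 higher and 617 lower (49.7% higher) in place of 773 and 461 (62.6% higher), and the 4-fold split 198 and 188 in place of 235 and 155. What part the RNA content had in any difference was not tested. The estimated depth was 44425908 reads for cDC1 and 55960049 for CD103int DC, so a value of 10 CPM rested on about 491 and 574 reads.

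At the top of the higher genes stood Retnla, a resistin-like secreted protein of type 2 immunity, listed at 0 in cDC1, with 0, 14, 142 and 29.9 CPM. Both lysozyme genes were higher. Lyz2, the lysozyme of macrophages, was at 184, 3302, 3479 and 6022 CPM and 18.9-fold (18.6 to 19.4) higher, and Lyz1, mainly known from Paneth cells, stood at 1.26, 24, 81.3 and 22.4 CPM. Lyz1 and Lyz2 share 16.1% of Lyz1's 50-base stretches, and together they were 19.3-fold higher. The eosinophil-type ribonuclease gene Ear2 stood at 11.1, 62, 228 and 63 CPM and shares 41.5% of its 50-base stretches with other genes, so part of its reads can belong to those. Ctsk, a collagen-degrading protease of the lysosome, had 15.6 CPM in CD103int DC and was listed at 0 in cDC1.

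Promoters of Retnla, Lyz1, Ear2 and Ctsk are shown because, among the 25 protein-coding genes with the largest higher differences, these have a single promoter window and hold a C/EBP motif. No binding was measured. The windows run from 250 bases before to 50 after the RefSeq start (RefSeq, GRCm38.p6), read along the gene's strand. Capitals mark the C/EBP motif TTNNGCAA on either strand, where N is any base.
Retnla (chr16:48842359-48842658, plus strand): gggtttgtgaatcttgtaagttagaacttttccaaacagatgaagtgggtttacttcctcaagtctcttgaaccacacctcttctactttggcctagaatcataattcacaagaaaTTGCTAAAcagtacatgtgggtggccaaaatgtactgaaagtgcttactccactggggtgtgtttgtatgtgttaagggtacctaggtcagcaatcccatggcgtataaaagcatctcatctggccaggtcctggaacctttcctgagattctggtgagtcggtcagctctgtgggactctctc
Lyz1 (chr10:117292819-117293118, minus strand): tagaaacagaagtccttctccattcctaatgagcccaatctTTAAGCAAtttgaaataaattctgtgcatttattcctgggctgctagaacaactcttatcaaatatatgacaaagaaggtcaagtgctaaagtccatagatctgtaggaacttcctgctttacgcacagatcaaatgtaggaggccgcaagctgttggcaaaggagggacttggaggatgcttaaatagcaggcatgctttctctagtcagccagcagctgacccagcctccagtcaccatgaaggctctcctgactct
Ear2 (chr14:44102404-44102703, plus strand): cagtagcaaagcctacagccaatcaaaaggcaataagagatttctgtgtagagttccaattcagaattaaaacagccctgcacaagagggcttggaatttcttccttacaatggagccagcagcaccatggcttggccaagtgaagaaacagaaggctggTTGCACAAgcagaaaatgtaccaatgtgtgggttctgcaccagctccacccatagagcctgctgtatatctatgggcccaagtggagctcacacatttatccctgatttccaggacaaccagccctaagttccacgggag
Ctsk (chr3:95498960-95499259, plus strand): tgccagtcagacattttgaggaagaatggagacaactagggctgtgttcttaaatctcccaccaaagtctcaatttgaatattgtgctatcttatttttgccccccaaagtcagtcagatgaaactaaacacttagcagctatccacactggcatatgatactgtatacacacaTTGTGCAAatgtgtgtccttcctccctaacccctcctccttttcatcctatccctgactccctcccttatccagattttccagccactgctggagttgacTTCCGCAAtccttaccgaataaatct

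The match begins 134 bases before the start in Retnla, 209 in Lyz1 and 90 in Ear2. Ctsk has a match 76 bases before and another 24 bases after the start. Of 226 windows of 174 genes at least 4-fold higher, 44 (19.5%) hold the motif, against 713 of 8432 windows (8.46%) of the genes compared and 10.8% of all 32851 windows. Of the 153 windows of 119 genes at least 4-fold lower, 18 (11.8%) do. Among the 25 protein-coding genes with the largest higher differences, 18 have a promoter in the table, and 5 of these hold the motif, Il1rl1 in 1 of its 2 windows besides the 4 shown. Among the 25 with the largest lower differences, 2 of 19 hold it, Cd8a and Siglech. Windows of a gene with several starts can overlap, and these shares describe letters only.

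Among the 25 protein-coding genes with the largest lower differences, Mctp2, Gpr55 and Gimap1 have a promoter window with the PU.1 motif GAGGAAGT. Mctp2 and Gpr55 are shown as examples, with the motif in capitals. Mctp2, a calcium-binding membrane protein, was at 25.7, 1.53, 0.522 and 1.76 CPM, and Gpr55, a receptor for lysophospholipids, at 85.7, 6.04, 6.55 and 4.84 CPM (13.1-fold (11.8 to 14.6) lower). Gimap1, a small GTPase gene of lymphocytes, was 18.4-fold (14.7 to 23.3) lower (26.3, 1.4, 1.43 and 1.37 CPM). PU.1 is the myeloid factor encoded by Spi1, which was level between the libraries (352 against 302 CPM).
Mctp2 (chr7:72306546-72306845, minus strand): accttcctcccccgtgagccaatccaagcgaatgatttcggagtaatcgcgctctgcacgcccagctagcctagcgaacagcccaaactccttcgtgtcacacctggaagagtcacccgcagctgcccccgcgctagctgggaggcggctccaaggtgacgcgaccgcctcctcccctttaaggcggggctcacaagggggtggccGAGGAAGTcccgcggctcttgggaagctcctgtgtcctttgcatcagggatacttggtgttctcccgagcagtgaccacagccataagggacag
Gpr55 (chr1:85961006-85961305, minus strand): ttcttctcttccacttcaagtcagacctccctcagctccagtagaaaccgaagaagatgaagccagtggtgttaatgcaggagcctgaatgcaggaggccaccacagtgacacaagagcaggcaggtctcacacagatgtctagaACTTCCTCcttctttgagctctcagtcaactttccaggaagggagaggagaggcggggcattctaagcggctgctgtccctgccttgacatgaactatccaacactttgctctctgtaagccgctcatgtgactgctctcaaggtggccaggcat

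The motif begins 44 bases before the start in Mctp2 and 105 in Gpr55, and the Retnla window holds it too, 198 bases before the start. It lies in 12 of 153 windows (7.84%) of the lower genes, 13 of 226 (5.75%) of the higher genes and 318 of 8432 (3.77%) of those compared. An interferon-stimulated response element (GAAANNGAA) lies in 16.8% of the windows of higher genes, 11.1% of those of lower genes and 7.87% of those compared. The Ear2 window shown above has such an element 105 bases before the start. The E-box TCACGTG, known from lysosomal genes, was in 4.87%, 4.58% and 6.65%, and the hypoxia element TACGTG in 2.21%, 3.92% and 3.88%.

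The sort markers followed the labels. Itgae, which encodes CD103, stood at 77, 1.1, 13.2 and 5.5 CPM, 5.83-fold (5.39 to 6.31) lower in CD103int DC than in cDC1 and 2.4-fold (2.1 to 2.75) higher than in macrophages, the next library. Itgam, which encodes CD11b, was 18.8-fold (17.9 to 19.7) higher in CD103int DC (688 against 36.7 CPM). Adding Gm49368, an entry that shares 3450 exonic bases with Itgam on the same strand, gave 695 against 38.2 CPM.

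Most cDC1 identity genes were lower. Of 19 markers compared, 13 were at least 2-fold lower, 8 of them at least 4-fold, and 0 higher (median -1.91). Clec9a, the dead-cell receptor, was at 11.4 against 60.2 CPM (5.26-fold (4.83 to 5.73) lower) and Btla, an inhibitory receptor, at 12.5 against 116 CPM (9.28-fold (8.58 to 10.04) lower). Snx22 (1.89 against 17.5 CPM) and the endocytic receptor gene Ly75 (10.8 against 43.4 CPM) followed. The other 6 were level, among them Batf3, a factor cDC1 depend on (16.1, 12.6, 16.2 and 9.75 CPM), Rab7b (109.8, 116, 97.9 and 155 CPM) and Pianp (21.9, 14, 24.1 and 4.91 CPM). Cd24a, a mucin-like surface protein, kept 151 against 241 CPM where cDC2 and macrophages had 24.9 and 30.5. Irf8, which cDC1 also depend on, is on this list, but its value is not reported here. Of the 8 interferon regulatory factor genes compared, 2 were at least 2-fold lower and 0 higher (median -0.26). The highest value in that family was 704 CPM in cDC1 and 366 CPM in CD103int DC.

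Plasmacytoid DC markers had the lowest class median. 8 of 10 compared were lower by at least 4-fold and 0 higher (median -3.26). Siglech, a lectin of plasmacytoid DC, was at 15, 1.38, 0.366 and 0.733 CPM and Tcf4, the factor that specifies them, at 502, 70.7, 63.2 and 110.2 CPM (7.93-fold (7.66 to 8.21) lower). Pacsin1 was at 3.08 against 26.4 CPM and Runx2 at 14.5 against 76.9 CPM. The summed level of the 12 listed markers in the table was 981 CPM in cDC1, 315 in cDC2, 211 in CD103int DC and 410 in macrophages. How far plasmacytoid DC in the cDC1 sort contribute to these and to the other genes shared by both cell types was not tested. In bulk RNA fewer cells of a type and less RNA per cell cannot be told apart.

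Several genes common to conventional DC were lower (7 of 12 at least 2-fold, 0 higher, median -1.63). Dpp4, a peptidase on the surface of DC, was at 38.6 against 119 CPM, and Zeb1, a repressor of transcription, at 8.52 against 35.5 CPM. Ciita, the switch for MHC class II, was level at 437 against 491 CPM. The integrin gene Itgax (CD11c) was higher by less than 2-fold (1280 against 769.7 CPM).

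Markers of cDC2 were divided, with 6 higher by at least 2-fold and 4 lower of 12. Cd302 (31.3 against 3.24 CPM), Clec12a (138 against 39.96 CPM) and Mgl2 (807 against 337 CPM), a galactose-binding lectin, were higher. Clec10a, the other mouse gene of that lectin type, was lower (65.2 against 191 CPM), and so was Irf4 (71.6 against 152 CPM).

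Macrophage markers stood at the other end, with 17 of 19 higher by at least 2-fold and 1 lower (median 2.52). Adgre1, which encodes F4/80, was 9.45-fold (8.82 to 10.1) higher (18.3, 262, 173 and 335 CPM), and Cd63, a tetraspanin of late endosomes, 11.4-fold (10.5 to 12.5) higher (11.2, 202, 127 and 51.6 CPM). C1qa, C1qb and C1qc, the chains of complement C1q, were at 228 against 36.7, 328 against 49.1 and 191 against 32.4 CPM. Mertk, a receptor for dead cells used to define macrophages, was level at 15.6, 32.5, 19.4 and 17.6 CPM. Timd4, another such receptor, was the member that was lower (2.63 against 18 CPM).

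Monocyte genes went both ways. 10 of 16 were higher by at least 2-fold and 3 lower (median 1.97). Ccr2, the receptor by which monocytes leave the marrow, was at 254, 701, 832 and 978 CPM (3.28-fold (3.21 to 3.34) higher) and Cd14 at 41, 228, 251 and 594 CPM. Cx3cr1 (61.3, 40.4, 13 and 94.5 CPM) and Plac8 (486, 218, 128 and 1276 CPM) were lower. Ly6c2, the classical monocyte marker, was at 233, 236, 132 and 1371 CPM.

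Markers of other cell types were present at low or moderate levels. The 5 chains of CD3 and the T cell receptor in the table summed to 0.488 CPM in CD103int DC and 9.72 in cDC1. Natural killer cell markers summed to 99.3 against 231 CPM, of which Klrk1 made 83.9 against 141 and Klrd1 13.8 against 67.3, and the granule genes Gzmb, Prf1 and Nkg7 were at 0.209 against 2.96, 0.0522 against 2.98 and 0.139 against 3.16 CPM. Fibroblast markers summed to 22.8 against 21.4 CPM. Endothelial markers summed to 178 against 502 CPM, of which Kdr made 63.9 against 425 and Pecam1 35.3 against 29.7, and epithelial and tumour cell markers to 199.8 against 425 CPM, of which Cdh1 made 194 against 416 and Epcam 4.29 against 6.08. Siglecf and Ccr3, which define eosinophils, were at 6.24 against 0.632 and 1.15 against 0 CPM (the latter listed at 0 in cDC1). Their sum was 0.632, 3.45, 7.38 and 0.733 CPM, highest in CD103int DC. Ear2 and Alox15 of that list were at least 4-fold higher. Hdc, a basophil and mast cell gene, was at 0.0612, 7.11, 5.99 and 49.2 CPM. Ighm, the heavy chain of IgM, was at 148, 30.4, 22.4 and 73 CPM and Igkc at 0.0174 against 1.16 CPM. The part of such cells in the differences was not tested.

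**Figure D2:**
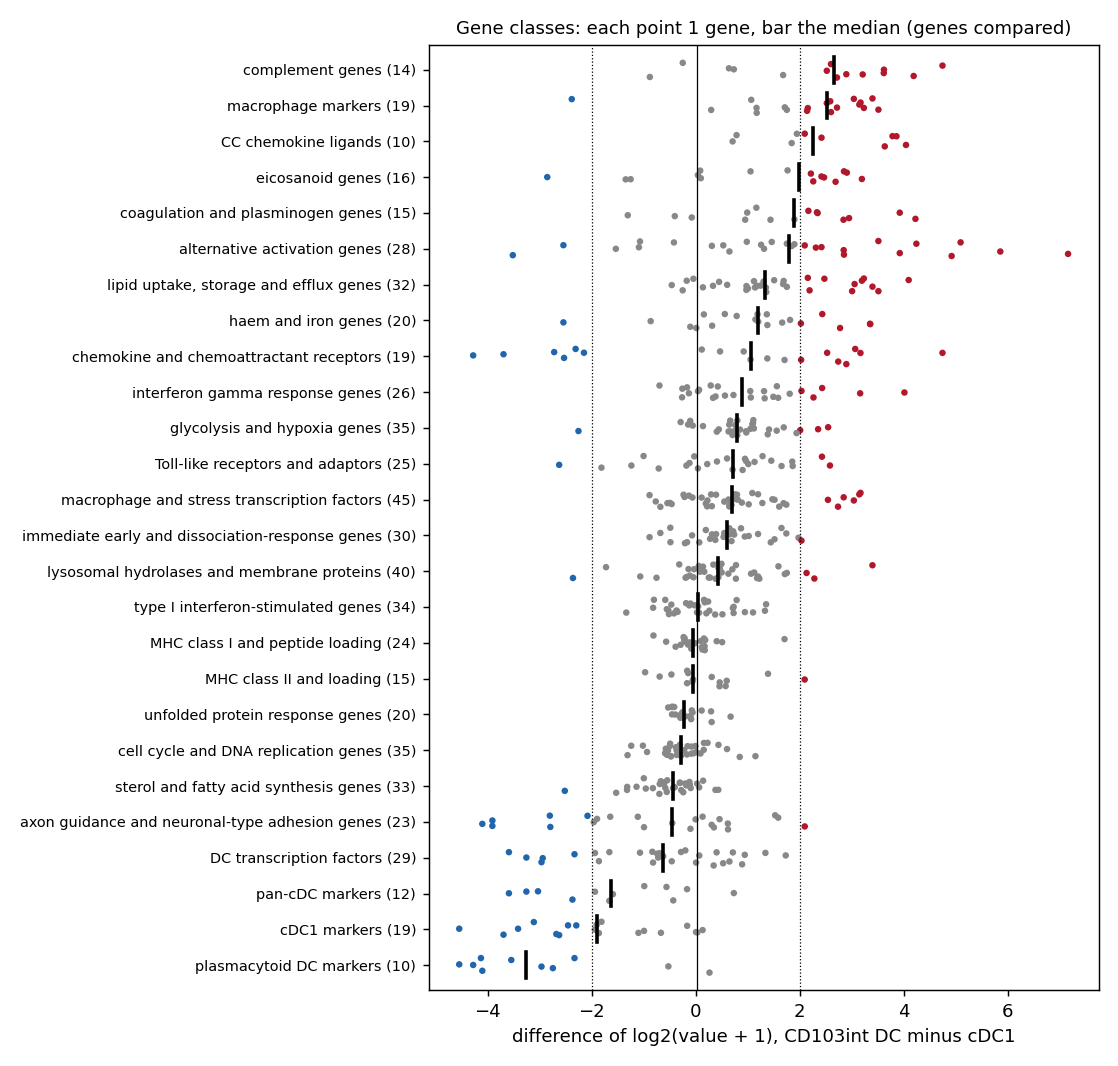
Differences on the log2(CPM + 1) scale (x axis) of the genes compared in 26 classes (y axis, number of genes in brackets), with 1 point per gene and a bar at the class median. Dotted lines mark 4-fold and the solid line the median over all genes, and the medians run from -3.26 for plasmacytoid DC markers to 2.66 for complement genes.

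Of 29 growth factor and cytokine receptors 7 were at least 2-fold higher, 3 lower and the other 19 level. Flt3, the receptor for the main growth factor of conventional DC, was 8.54-fold (8.04 to 9.07) lower (179, 15.8, 21 and 32.6 CPM), and Kit, the receptor for stem cell factor, 5.52-fold (5.08 to 5.99) lower (67.8, 12.1, 12.3 and 10.2 CPM). Csf1r, the receptor for macrophage growth factor, was 2.26-fold (2.22 to 2.3) higher (409, 1096, 925 and 1538 CPM). The receptor for GM-CSF did not go one way: its alpha chain Csf2ra was 2.63-fold (2.56 to 2.71) higher (337 against 128 CPM), the shared beta chain Csf2rb was at 525 against 426 CPM, and Csf2rb2, the chain of the interleukin-3 receptor, was 2.89-fold (2.82 to 2.96) lower (169 against 488 CPM). Csf2rb and Csf2rb2 share 18.4% of the 50-base stretches of Csf2rb2. Il1rl1, the receptor for interleukin-33, was 97.7-fold (54.4 to 196) higher (0.224, 1.23, 21.9 and 3.72 CPM). That fold rested on about 0.2 CPM in cDC1, and the difference on the log2(CPM + 1) scale was 4.23. The genes Il4ra (176 against 236 CPM), Il10ra (203 against 234 CPM) and Ifngr1 (148 against 137 CPM) were level.

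Among DC transcription factors 9 of 29 were lower by at least 2-fold and 2 higher (median -0.63). Bcl11a, needed for DC and B cell development, was 12.5-fold (11.8 to 13.1) lower (354, 26.9, 28.4 and 32.8 CPM). Mycl, a MYC relative used by cDC1, was 8.54-fold (7.74 to 9.43) lower (68, 4.18, 7.96 and 7.29 CPM). Id2, which conventional DC need, was at 92, 90.2, 133 and 80.02 CPM, and Zeb2, which supports cDC2 and monocytes, at 281, 559, 523 and 826 CPM. The higher members were Prdm1, which encodes Blimp-1 (13.3, 70.6, 46.5 and 158 CPM), and Nfil3 (73.2, 186, 187 and 377 CPM), a gene that cDC1 development itself requires.

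Of 45 macrophage and stress factors 15 were higher by at least 2-fold and 0 lower (median 0.69). Cebpb, a C/EBP factor of macrophage activation, was 9.18-fold (8.79 to 9.6) higher (44.5, 457, 409 and 857 CPM). Maf, which holds macrophages in their differentiated state, was 9.76-fold (8.84 to 10.8) higher (8.79, 148, 85.7 and 231 CPM). Nuclear receptors of lipid sensing followed: Pparg was at 2.94, 39.8, 27.3 and 33.7 CPM (9.3-fold (7.84 to 11.1) higher) and Nr1h3, which encodes LXR alpha, at 6.65, 109, 50 and 105 CPM (7.52-fold (6.71 to 8.46) higher), while the related Nr1h2 was level (49.2 against 57.4 CPM) and Rxra, their partner, at 75.2 against 106 CPM. Tfec and Mitf, relatives of the lysosomal factor TFEB, were at 14 against 1.57 and 53.8 against 18.7 CPM. Nfe2l2, the factor of the oxidative stress response, was at 198 against 60.6 CPM. Spi1, Stat6, Hif1a and Stat3 differed by less than 2-fold.

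Of 25 Toll-like receptors and adaptors 9 were higher by at least 2-fold and 4 lower (median 0.71). The receptors of bacterial lipids, Tlr2 (45.4, 200.4, 145 and 435 CPM), Tlr1 (19, 90.5, 47.8 and 95.8 CPM) and Tlr4 (13.7, 52.4, 52.6 and 59.5 CPM), were at least 2-fold higher, as was the co-receptor Cd14. Tlr8 (8.32, 52.9, 49.2 and 85.6 CPM) and Tlr13 (44.3, 184, 123 and 279 CPM), which read RNA, were higher as well. Tlr3, the receptor of double-stranded RNA on which cross-priming by cDC1 draws, was 6.49-fold (6.06 to 6.96) lower (108, 15, 16.6 and 29.4 CPM). Tlr11 and Tlr12, which bind profilin of parasites, were lower at 12.8 against 47.5 and 8.88 against 22.3 CPM. Tlr9 stood at 144 against 237 CPM and the shared adaptor gene Myd88 at 130.2 against 133 CPM. Inside the cell, Nlrp3 (189 against 66.3 CPM) and Nod2 (57 against 20.02 CPM) were at least 2-fold higher, and the DNA and RNA sensor genes Tmem173 (94.7 against 109 CPM) and Ifih1 (123 against 118 CPM) were level.

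The C-type lectin receptors had a median of 2.30 (9 of 14 higher by at least 2-fold and 2 lower). Clec4e, which encodes the receptor Mincle for mycobacterial glycolipid, was 14.7-fold (12.7 to 17) higher (4, 88.7, 58.6 and 354 CPM), and its partner Clec4d 24.4-fold (17.5 to 35) higher (0.734, 24.9, 17.9 and 71.2 CPM). The fold of Clec4d rested on 0.734 CPM in cDC1, and its difference on the log2(CPM + 1) scale was 3.44. Clec5a (2.14, 57.7, 37.7 and 52.3 CPM) and Clec4b1 (2.32, 22.7, 42.5 and 9.82 CPM) were next. Clec7a, the beta-glucan receptor dectin-1, which the annotation types as a polymorphic pseudogene and which therefore stands outside this family count, was 3.67-fold (3.6 to 3.75) higher (222, 1044, 816 and 1084 CPM). The DC-SIGN family ran the other way. Cd209e was 12-fold (11.3 to 12.8) lower (222, 6.99, 18.4 and 16.4 CPM) and Cd209d 8.46-fold (7.86 to 9.13) lower (117, 5.78, 13.9 and 9.95 CPM).

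Several Fc receptors for IgG were higher. Fcgr3, an activating receptor, was at 49.9, 338, 330.5 and 252 CPM, Fcgr2b, the inhibitory receptor, at 131, 508, 489 and 463 CPM and Fcgr4 at 10.9, 129, 53.9 and 103 CPM. Fcrls, an Fc receptor-like scavenger gene, reached 8.5, 21.8, 165 and 16.4 CPM (19.4-fold (17.6 to 21.5) higher). Fcgrt, the neonatal Fc receptor that recycles IgG, was 4.18-fold (4.04 to 4.33) lower (310.1, 65.3, 74.2 and 50.9 CPM). CD300 receptors had 7 of 8 higher by at least 2-fold and 0 lower, among them Cd300ld (103 against 19.9 CPM) and Cd300lb (64.4 against 15.3 CPM). Among Ms4a genes, Ms4a7 (40.2 against 5.85 CPM) and Ms4a6d (199 against 40.1 CPM) were higher, and Ms4a8a had 10.7 CPM in CD103int DC, being listed at 0 in cDC1.

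Scavenger and dead-cell receptors included genes on both sides, with 11 higher by at least 2-fold and 5 lower of 25. Msr1, a receptor for modified lipoprotein, was 8.34-fold (7.86 to 8.85) higher (24.7, 315, 206 and 481 CPM), Cd93 11.2-fold (10.4 to 12) higher (18.1, 398, 202 and 456 CPM) and Stab1 8.01-fold (6.61 to 9.78) higher (2.38, 38.6, 19.1 and 24.5 CPM). Lrp1, a receptor for many ligands including dead cells, was at 412, 1472, 1677 and 2152 CPM, and Mrc1, the mannose receptor, at 187, 311, 633 and 379 CPM. The phosphatidylserine receptors Havcr1 (13.8, 0.798, 0.644 and 0.641 CPM) and Timd4 were lower, as were Pros1 (21.5 against 54.7 CPM), the bridging ligand of Axl and Mertk, and Cd163 (18.3, 0.647, 2.3 and 2.55 CPM), the haemoglobin receptor otherwise known from macrophages.

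Most MHC genes were level. Of 15 class II and loading genes 2 were higher by at least 2-fold and 0 lower (median -0.05), and of 24 class I genes 1 higher and 0 lower (median -0.05). H2-Ab1 stood at 5454 against 3660 CPM, H2-Aa at 4236 against 3076, H2-K1 at 1464 against 1312 and Tap1 at 395 against 458 CPM. The class II members past 2-fold were the proteases Ctss (2321 against 884 CPM), which trims the invariant chain, and Lgmn. H2-Oa, which restrains peptide exchange, was at 9.53 against 19.7 CPM. Cd1d1, which presents lipids, was 3.96-fold (3.33 to 4.72) higher (13 against 3.28 CPM).

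In the cross-presentation list 5 of 20 genes were at least 2-fold lower, namely Xcr1, Tlr3, Clec9a, Wdfy4 and Rab27a, a vesicle-transport gene (20.3 against 103 CPM). Sec61a1 (243 against 229.7 CPM), Sec22b (37.8 against 36.6 CPM) and Lnpep (323 against 265 CPM) were level. Cybb, the NADPH oxidase subunit, was the member at least 2-fold higher (1078 against 514 CPM).

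Ligands for T cells included genes on both sides (6 higher and 3 lower of 22 at least 2-fold). Cd80 (31.2 against 22.6 CPM), Cd86 (117 against 103 CPM) and Cd40 (49.2 against 59.2 CPM) were level. Cd274 (PD-L1) was 2.1-fold (2.02 to 2.19) higher (65.8, 216, 138 and 419.8 CPM), Cd276 (B7-H3) was at 0.245, 27.8, 13.4 and 35.1 CPM (54.8-fold (31.2 to 107) higher) and Vsir (VISTA) at 205 against 80.02 CPM. Icosl, the ligand of ICOS, was 2.58-fold (2.44 to 2.72) lower (32.7 against 84.3 CPM), and Lag3 10.2-fold (9.26 to 11.2) lower (86.5, 10.02, 8.5 and 4.91 CPM). Genes of mature, migrating DC gave no common direction: Ccr7 was at 11.1 against 10.2 CPM, Cd83 at 180.3 against 176 CPM and Fscn1 at 8.24 against 26.4 CPM.

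Receptors for chemoattractants lay on both sides, with 10 higher by at least 2-fold and 6 lower of 19. The higher members include receptors for complement fragments, lipid mediators and inflammatory chemokines. C3ar1 was 7.78-fold (7.28 to 8.33) higher (19.5, 303, 152 and 352 CPM), Ltb4r1, for leukotriene B4, 8.9-fold (8.24 to 9.62) higher (14.5, 94, 129 and 66.9 CPM), Ptafr, for platelet-activating factor, 4.11-fold (3.98 to 4.25) higher (91.9, 549, 378 and 899.9 CPM) and Cmklr1, for chemerin, 7.02-fold (6.54 to 7.55) higher (17, 171, 119.7 and 158 CPM). Fpr2, a receptor for formyl peptides, was at 0.877, 41.1, 15.9 and 80.2 CPM, and 31.5% of its 50-base stretches are shared with other genes. The lower members include receptors that position lymphocytes and DC. Gpr183, the receptor for oxysterols, was 6.77-fold (6.45 to 7.11) lower (230.2, 37.9, 34 and 65.3 CPM), S1pr4 7.18-fold (6.17 to 8.38) lower (24.8, 2.72, 3.45 and 3.46 CPM) and Cxcr3 7.74-fold (6.12 to 9.88) lower (11.1, 1.03, 1.43 and 1.65 CPM). Cyp7b1, an enzyme in the synthesis of the oxysterol ligand of Gpr183, was also lower, by 14.4-fold (13.5 to 15.5) (232, 12.6, 16 and 12.6 CPM). Ch25h, which makes the precursor of that ligand, stood below 10 at 8.94 against 2.16 CPM.

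CC chemokine genes were higher in 8 of 10, with 0 lower (median 2.26). Ccl2, the attractant of monocytes, was 26-fold (20.02 to 34.4) higher (1.18, 33.4, 30.7 and 66.5 CPM). Ccl17 and Ccl22, ligands of CCR4, were at 16.3, 34.1, 61.1 and 2.82 and 6.62, 18.4, 31.6 and 4.97 CPM, with their highest value in CD103int DC, and Ccl24, a ligand of the eosinophil receptor CCR3, at 11.7, 66.3, 66.9 and 28.2 CPM. Cxcl9 (77.2, 343, 195 and 276 CPM) and Cxcl16 (87.6, 468, 273 and 208 CPM), which attract T cells, were 2.53-fold and 3.11-fold higher. Xcl1, the ligand of XCR1, was under 10 in both libraries (0.0697 against 7.73 CPM).

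Among other integrin chains, Itgb5 was 19.2-fold (16 to 23.2) higher (2.44, 97.8, 46.7 and 90.9 CPM) and Itgb3, another partner of the alpha V chain, 5.95-fold (5.51 to 6.42) lower (82.8, 7.14, 13.9 and 11.7 CPM), while Itgav itself stood at 95.5 against 66.4 CPM. Itga9 was 10.1-fold (8.57 to 11.9) higher (3.22, 78.8, 32.5 and 36.8 CPM). The partner of CD103, Itgb7, was at 154 against 234 CPM and the partner of CD11b and CD11c, Itgb2, at 1234 against 645 CPM.

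Adhesion and guidance genes best known from neurons were lower in 10 of 23 and higher in 3 (median -0.45). Nlgn2 (40.5, 3.88, 4.96 and 4.01 CPM), Epha2 (35.7, 5.02, 4.25 and 5.57 CPM) and Sema6d (28.2, 6.14, 5.9 and 2.62 CPM) were at least 4-fold lower. The higher members were all receptors of semaphorins or their partners, Plxnd1 (146, 405, 629 and 318 CPM), Plxna1 (117, 331, 354 and 264 CPM) and Nrp2 (67.2, 156, 196 and 132 CPM). The nerve growth factor receptor Ngfr (194, 8.6, 13.7 and 9.6 CPM, 14.2-fold (13.2 to 15.3) lower) and the cell adhesion gene Adam23 of the ADAM family (1006, 86.8, 98.6 and 59 CPM, 10.2-fold (9.93 to 10.5) lower) lay outside this list and went the same way. Kdr, the receptor VEGFR2 and an endothelial marker, was 6.65-fold (6.42 to 6.89) lower (425, 110.2, 63.9 and 239 CPM), and its ligand Vegfa 6.27-fold (5.74 to 6.85) higher (11.6, 74.2, 72.6 and 119 CPM).

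Cytokine and growth factor genes with at least 10 CPM leaned to the higher side (7 of 11 at least 2-fold higher, 0 lower). Inhba, a chain of activin A, was 14.5-fold (12.8 to 16.5) higher (5.26, 106, 76.3 and 102 CPM) and Osm, oncostatin M, 8.81-fold (8.2 to 9.47) higher (16.7, 152, 147 and 305 CPM). Pdgfb was at 8.24, 72.2, 47 and 42.9 CPM and Igf1 at 1.1, 22.5, 12.6 and 13.3 CPM. Tgfb1 was level (312 against 196 CPM). Below 10 CPM in both libraries were Il6 (7.75 against 0.856 CPM), Il12b (1.46 against 3.59 CPM), Il10 (0.522 against 0.673 CPM) and Areg (8.73 against 1.61 CPM), so these were not compared. In the TNF family, Tnfsf12 (TWEAK) was at 2.82, 35.2, 33.5 and 19 CPM, Tnfsf13 (APRIL) at 1.39, 22.9, 12.9 and 28.3 CPM and the receptor gene Tnfrsf1b at 81.6, 392, 298 and 923 CPM. Tnfsf12 and Tnfsf13 share 46.8% and 57.3% of their 50-base stretches with the entry Tnfsfm13, so their values depend on how reads were divided.

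Among the classes plotted, complement genes had the largest class median (2.66, with 10 of 14 higher by at least 2-fold and 0 lower). Besides C1q, C4b was 13.4-fold (10.9 to 16.7) higher (1.98, 41.9, 26.6 and 49.2 CPM), although 34.6% of its 50-base stretches are shared with other genes. Cfp, the stabiliser properdin, was at 505 against 600.5 CPM, within 2-fold. Coagulation genes were higher in 10 of 15 and lower in 1. F7 and F10, clotting factors VII and X, were at 15, 113, 123 and 30.2 and 37.5, 249.6, 275 and 337 CPM, F13a1, the cross-linker of fibrin, at 2.59, 23, 53.5 and 237 CPM, and the urokinase genes Plau and Plaur at 158 against 34.5 and 279 against 54.6 CPM. Pros1, an anticoagulant, was the lower member.

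Among matrix genes, Fn1, fibronectin, reached 109, 1195, 3325 and 1422 CPM and Tgfbi 521, 2185, 1681 and 2199 CPM. Ecm1 was 13.6-fold (11.7 to 16) higher (3.42, 37.3, 46.7 and 43.5 CPM) and Emilin1 4.3-fold (3.9 to 4.75) higher (9.77, 51.8, 42 and 41.1 CPM), while the collagen gene Col1a1 stayed under 10 in both libraries (4.81 against 4.59 CPM). Of the proteases, Mmp19 was 11-fold (9.98 to 12.1) higher (9.67, 49.3, 106 and 102 CPM) and Mmp12, macrophage elastase, 6.44-fold (6.32 to 6.57) higher (225, 1250, 1447 and 168 CPM). The inhibitors parted, with Timp2 6.81-fold (6.34 to 7.33) higher (17, 89.5, 116 and 50.4 CPM) and Timp1 2.69-fold (2.4 to 3.02) lower (20.4, 4.74, 7.58 and 4.86 CPM).

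Genes of alternative activation, the response of macrophages to interleukin-4, had 18 of 28 higher by at least 2-fold and 5 lower (median 1.80). The higher members include Tgm2, a transglutaminase (79.7, 471, 299.8 and 759.9 CPM). The lower members were Cd209e, Cd163, Clec10a, Irf4 and Cdh1 (416, 118, 194 and 87.9 CPM), the adhesion protein E-cadherin. The interleukin-4 receptor chain gene Il4ra and Stat6 (209 against 169 CPM) were level.

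Of 24 genes of amino acid metabolism 7 were higher by at least 2-fold and 5 lower. Among the higher members, Arg1, arginase, reached 0.673, 59.7, 96.2 and 48 CPM, its arginine carrier Slc7a2 was 16.7-fold (14.5 to 19.3) higher (4.16, 59.6, 69.3 and 21.7 CPM), Nos2, which makes nitric oxide from arginine, 12.8-fold (10.5 to 15.8) higher (2.08, 41.4, 26.6 and 19.6 CPM), and Slc7a11, the cystine carrier, 4.86-fold (4.62 to 5.1) higher (39, 187, 189 and 81 CPM). Acod1, which makes itaconate, was 29-fold (22.3 to 38.3) higher (1.18, 69.98, 34.3 and 149 CPM). Among the lower members, Kmo was 4.39-fold (4.26 to 4.53) lower (396, 79.5, 90.2 and 62.6 CPM) and Kynu 5.67-fold (5.22 to 6.17) lower (66.4, 14.6, 11.7 and 12 CPM), both enzymes of the kynurenine route, while Haao of the same route lay just short of 2-fold (11.9 against 24.5 CPM). Il4i1, which oxidises phenylalanine and tryptophan, was at 264, 27.5, 27.6 and 41.7 CPM, and Slc7a5, the carrier of large neutral amino acids, 5.08-fold (4.91 to 5.25) lower (373, 73.6, 73.4 and 52.4 CPM). Its partner chain Slc3a2, which also serves Slc7a11 and Slc7a8 (115 against 21.6 CPM), was level (219 against 178 CPM). The polyamine genes Odc1 (132 against 137 CPM) and Sms (26.9 against 27 CPM) were level, and Sat1, which degrades polyamines, was at 206 against 82.4 CPM.

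**Figure D3:**
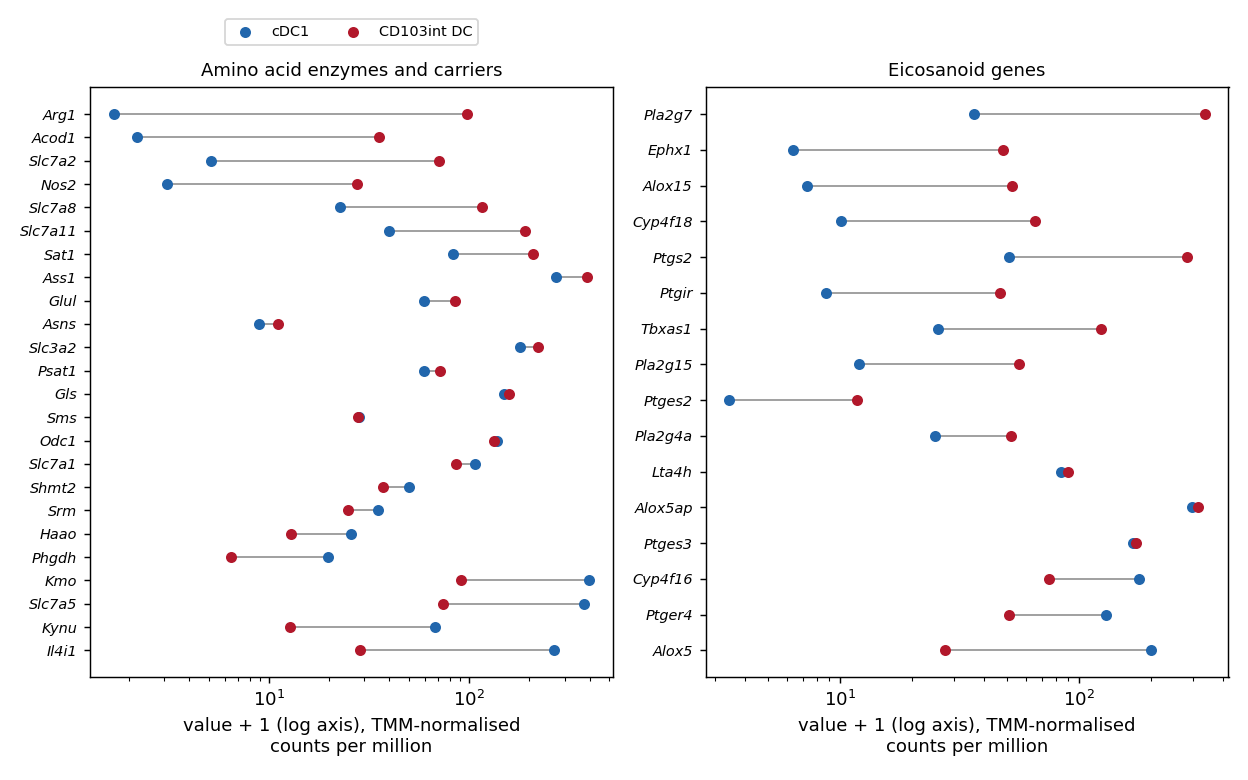
Values plus 1 (x axes, log scale, CPM) in the cDC1 (blue) and CD103int DC (red) libraries for the compared genes of amino acid metabolism (left) and of the eicosanoid list (right), ordered by difference. Arg1, Acod1, Slc7a2 and Nos2 lie far to the right in CD103int DC and Il4i1, Kynu, Slc7a5 and Kmo in cDC1, and in the eicosanoid panel Alox5, Ptger4 and Cyp4f16 are the genes at least 2-fold higher in cDC1.

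Eicosanoid genes lay on both sides (10 of 16 at least 2-fold higher, 3 lower). Alox5, the lipoxygenase that opens leukotriene synthesis, was 7.48-fold (7.09 to 7.9) lower (198, 13.2, 26.5 and 9.16 CPM), while its helper protein gene Alox5ap (312 against 294 CPM) and Lta4h (88.9 against 83 CPM), which completes leukotriene B4, were level. Alox15, the other lipoxygenase, was 8.21-fold (7.3 to 9.27) higher (6.28, 16, 51.6 and 3.99 CPM). Ptgs2, the inducible cyclooxygenase, was 5.63-fold (5.4 to 5.88) higher (49.7, 291, 279.9 and 586 CPM), and Tbxas1, thromboxane synthase, 4.95-fold (4.65 to 5.26) higher (24.8, 92.2, 123 and 44.8 CPM). Ptgs1 was listed at 0 in cDC1 and stood at 7.61 CPM in CD103int DC, under the minimum. Of the receptors, Ptgir, for prostacyclin, was 5.91-fold (5.31 to 6.6) higher (7.75, 25.4, 45.8 and 34.9 CPM) and Ptger4, for prostaglandin E2, 2.58-fold (2.46 to 2.69) lower (128, 65.7, 49.8 and 94.6 CPM).

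Among uptake, storage and efflux genes 22 of 32 were higher by at least 2-fold and 0 lower (median 1.33). Pla2g7, which cleaves oxidised phospholipids, was 9.4-fold (8.95 to 9.88) higher (35.5, 355, 333 and 335 CPM), the cholesterol exporter Abca1 4.87-fold (4.46 to 5.33) higher (11.6, 63.4, 56.7 and 62.5 CPM), the related Abcg1 2.56-fold (2.49 to 2.63) higher (365 against 142 CPM) and the droplet coat gene Plin2 3.23-fold (3.13 to 3.33) higher (107, 403, 345 and 596 CPM). Sterol and fatty acid synthesis genes were mostly level, with 5 of 33 lower by at least 2-fold and 0 higher (median -0.44). Fads2, a desaturase, was 6.06-fold (5.62 to 6.53) lower (88.6, 7.93, 14.6 and 6.76 CPM), and Fdps of the mevalonate route 2.52-fold (2.42 to 2.61) lower (73.4 against 185 CPM). Fasn, fatty acid synthase, lay just short of 2-fold on the log2(CPM + 1) scale (120.5 against 242 CPM). Sqle (53.9 against 87.7 CPM) and the regulator Srebf2 (275 against 439 CPM) were lower by less than 2-fold.

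Glycolysis and hypoxia genes were in part higher (14 of 35 at least 2-fold, 1 lower, median 0.80). Slc16a3, which exports lactate, was 4.08-fold (3.92 to 4.24) higher (64.7, 221, 264 and 309 CPM), Hilpda, a hypoxia-induced lipid droplet protein, 5.77-fold (5.12 to 6.53) higher (6.24, 26.6, 36 and 31.1 CPM), and Hk3 3.9-fold (3.72 to 4.09) higher (44.9, 228, 175 and 283 CPM). Pkm (2031 against 941 CPM), Aldoa (1166 against 446 CPM) and Tpi1 (482 against 163 CPM) were past 2-fold. Slc2a3, the glucose carrier GLUT3, was the lower member (40.5, 4.83, 7.68 and 9.07 CPM), against Slc2a1 (GLUT1) at 224 against 128 CPM. Hif1a was level (164 against 179.7 CPM). Nuclear genes of oxidative phosphorylation had 2 of 75 past 2-fold, with a median of 0.37.

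Of 20 iron and haem genes 12 were at least 2-fold higher, and the haemoglobin receptor gene Cd163 was the lower member. Hmox1, which degrades haem, was 5.52-fold (5.26 to 5.8) higher (38.1, 152, 210.3 and 164 CPM), Slc11a1, the iron pump of phagosomes, 7.1-fold (6.68 to 7.55) higher (23.9, 303, 169.8 and 263 CPM), Steap3, a ferric reductase, 12.8-fold (11 to 14.9) higher (3.63, 26, 46.3 and 12.6 CPM) and Slc40a1, ferroportin, at 0.163, 10.7, 10.9 and 8.61 CPM. The ferritin genes Fth1 and Ftl1 were at 2273 against 987 and 2476 against 781 CPM, and Tfrc, the transferrin receptor, lower by less than 2-fold (34.7 against 64.1 CPM). Ftl1 shares 50.9% of its 50-base stretches with other genes. The oxidase gene Cyba was at 513 against 127 CPM, and the antioxidant genes Srxn1 (7.05, 31.9, 38.2 and 32.1 CPM) and Mt1 (6.75, 17.9, 39.3 and 7.05 CPM) were at least 4-fold higher.

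Aldh1a2, the enzyme that makes retinoic acid, was 91.8-fold (49.8 to 192) higher (0.204, 1.62, 18.7 and 1.61 CPM), a value that rested on about 0.2 CPM in cDC1. The retinaldehyde reductase gene Dhrs3, known to be induced by retinoic acid, was 6.39-fold (5.72 to 7.15) higher (7.28, 32.7, 46.5 and 18.4 CPM), and Rara and Rxrb were level (73.8 against 93.7 and 34.4 against 36.3 CPM). Purinergic genes had 3 of 15 higher by at least 2-fold and 4 lower. Entpd1, the ectonucleotidase CD39, was 2.44-fold (2.36 to 2.53) higher (90.2, 237, 220.2 and 159 CPM), and P2ry10 3-fold (2.89 to 3.1) lower (227, 59.4, 75.8 and 46.7 CPM).

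Of 138 solute carriers 21 were higher by at least 2-fold and 7 lower beside 9.16% and 5.46% of all genes. Besides those named, Slc27a3, of the fatty acid transport protein family, was 5.46-fold (4.99 to 6) higher (11, 12.7, 60.2 and 6.03 CPM), Slc9a4, a sodium-proton exchanger, 11.9-fold (9.25 to 15.5) higher (1.34, 5.28, 16 and 2 CPM) and Slc44a2, a choline transporter-like gene, 5.66-fold (5.46 to 5.86) lower (362, 98.8, 64 and 214 CPM).

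Many lysosomal proteases were higher. Of 19 proteases and cystatins 10 were higher by at least 2-fold and 2 lower, and of 40 hydrolases and membrane proteins 11 and 3. Ctsd was 5.61-fold (5.44 to 5.78) higher (99.2, 577, 556 and 403 CPM) but shares 32.4% of its 50-base stretches with Gm49369, and Ctsb was 3.47-fold (3.42 to 3.52) higher (442, 2442, 1534 and 2570 CPM). Cst3, cystatin C, an inhibitor abundant in DC, was at 1933, 843, 1014 and 789 CPM, and Cst7 was lower (7.32 against 29.6 CPM). Arsb, a sulphatase, was 5.25-fold (5.01 to 5.5) lower (200.4, 20.04, 38.2 and 25.5 CPM), and Gla 5.27-fold (4.78 to 5.82) higher (9.6, 65.7, 50.6 and 96.9 CPM). The proton pump subunit gene Atp6v0d2 stood at 0.245, 17.4, 13.1 and 2.56 CPM, while the pump's 17 compared subunits had a median of 0.44.

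Of 34 genes induced by type I interferon 3 were higher by at least 2-fold and 1 lower, beside 9.16% and 5.46% of all genes. Irf7 (366 against 473 CPM), Isg15 (101 against 77.8 CPM) and Mx1 (31.1 against 30.6 CPM) were level. Of 26 genes of the interferon gamma response 13 were higher and 0 lower (median 0.89). Gbp2 was 2.97-fold (2.88 to 3.06) higher (104, 392, 308 and 808 CPM) and Gbp6 5.8-fold (5.29 to 6.36) higher (10.9, 106, 63.4 and 184 CPM), the latter sharing 70.7% of its 50-base stretches with other genes. Irgm1 (137 against 133 CPM), Iigp1 (113 against 124 CPM) and Irf1 (189 against 128 CPM) were not past 2-fold. Guanylate-binding proteins made 6 of the 13 higher members.

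Most STAT and SOCS genes were level: of 22 compared, 4 were at least 2-fold lower, 2 higher and 16 level (median -0.07). Over all genes 5.46% were lower and 9.16% higher. Stat5a was 3.01-fold (2.9 to 3.13) lower (185, 53.2, 61.4 and 65.9 CPM), Jak2 2.28-fold (2.22 to 2.34) lower (344, 129, 151 and 306 CPM) and Stat4 2.76-fold (2.42 to 3.14) lower (5.75 against 15.8 CPM), whereas Stat3 (212 against 249 CPM) and Jak1 (252 against 237 CPM) were level. Of 11 genes of the interleukin-15 and interleukin-2 pathway 2 were at least 2-fold lower, 0 higher and 9 level (median -0.23). The receptor chain Il2rb was 17.1-fold (12.2 to 24.5) lower (11, 8.13, 0.644 and 2.66 CPM), a fold that rested on 0.644 CPM in CD103int DC. Il2rb is also on the list of natural killer cell markers. The chain Il2rg was level (158 against 191 CPM). Nfkb1 was 2.19-fold (2.15 to 2.24) lower (509, 248, 232 and 404 CPM), and its feedback genes Nfkbia (271 against 97.5 CPM), Nfkbiz (253 against 104 CPM) and Tnfaip3 (465 against 195 CPM) were higher, with Rela level (70.6 against 67.1 CPM). Of 30 NF-kappaB factors and feedback genes 9 were higher by at least 2-fold and 1 lower.

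Immediate early genes, which also respond to tissue dissociation, had 8 of 30 higher by at least 2-fold and 0 lower (median 0.60). Dusp1 (449.9, 1493, 1414 and 1932 CPM), Egr1 (57.4, 97.4, 166 and 113 CPM) and Gadd45b (19.2, 80, 81.8 and 174 CPM) were higher, Fos (1287 against 821 CPM) and the heat shock gene Hspa1a (501 against 579 CPM) were not past 2-fold, and Jun was at 340 against 546 CPM. Hspa1a shares 60.3% of its 50-base stretches with other genes. At least 2-fold higher in CD103int DC were thus 8 of 30 immediate early and 9 of 30 NF-kappaB genes, while 22 and 20 were level. The part of sample handling in these differences was not tested. All 20 compared genes of the unfolded protein response lay within 2-fold (median -0.22), including Hspa5 (975 against 1116 CPM) and Xbp1 (162 against 132 CPM). Among apoptosis regulators, Pmaip1 (NOXA) was 2.86-fold (2.77 to 2.95) lower (278, 113, 97.5 and 274 CPM), Casp6 2.62-fold (2.5 to 2.75) lower (45 against 118 CPM), and Bcl2l1 (BCL-XL) 2.69-fold (2.51 to 2.88) higher (22, 88.1, 59.1 and 69.7 CPM).

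Of 35 genes of division 1 was at least 2-fold higher and 3 lower (median -0.28), beside 9.16% and 5.46% of all genes. Mki67, the proliferation marker, was 2.25-fold (2.13 to 2.36) higher (42.7, 25.1, 95.8 and 32.3 CPM), and Top2a (113, 34.6, 86.3 and 22.9 CPM) and Ccnb1 (11.7, 4.55, 11.8 and 3.26 CPM) were not past 2-fold. Of the G1 cyclin genes, Ccnd3 was 2.49-fold (2.43 to 2.56) lower (392, 125, 157 and 179 CPM), and Ccnd1 stood at 481, 222, 251 and 198 CPM, short of 2-fold. In housekeeping groups, 1 of 77 cytosolic ribosomal protein genes was past 2-fold, and 0 of 43 proteasome genes and 0 of 64 histone genes were.

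Of the 235 genes at least 4-fold above cDC1, 16 were also at least 2-fold above both cDC2 and macrophages. Named after their values were seen, these were Aldh1a2, Fcrls, Asgr2, Il1rl1, Retnla, Slc27a3, Ear2, Palld, Lyz1, Hr, Alox15, Ccdc80, Slc9a4, Ephx1, Fn1 and Mt1. Asgr2, a chain of the asialoglycoprotein receptor, was at 3.61, 4.59, 29.4 and 1.43 CPM and 6.41-fold (5.56 to 7.43) above cDC2. Palld, an actin-bundling protein, was at 5.4, 8.28, 30.3 and 4.97 CPM, Ccdc80, a matrix-associated protein, at 10.6, 18.1, 51.8 and 3.72 CPM, and Ephx1, an epoxide hydrolase, at 5.38, 19.3, 46.9 and 3.77 CPM. Hr, a nuclear corepressor, was at 52, 71.9, 228 and 17.6 CPM, so that cDC1 and cDC2 lay closer to each other than to CD103int DC. On the lower side, 3 of the 155 genes kept a value in CD103int DC at least 2-fold above cDC2 and macrophages, namely Sept3, a septin (265, 13.8, 59.97 and 20.1 CPM), Itgae and Cacna1b, a neuronal calcium channel (25.8, 1.9, 5.33 and 1.36 CPM). For these 3 the CD103int DC library lay between cDC1 and the others. Another 6 lower genes were at least 2-fold below both cDC2 and macrophages.

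**Figure D4:**
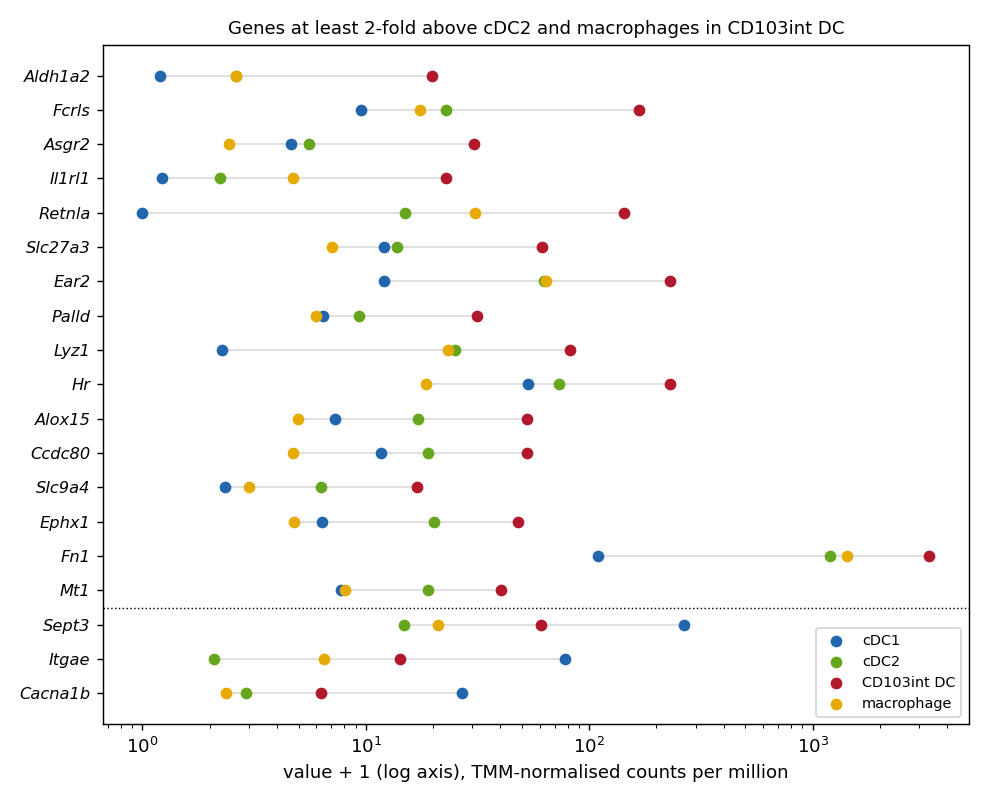
Values plus 1 (x axis, log scale, CPM) in the 4 libraries for the 16 genes at least 4-fold above cDC1 and at least 2-fold above the other libraries in CD103int DC (above the dotted line) and for 3 genes at least 4-fold below cDC1 (below it). The red points of CD103int DC are rightmost for the 16 genes, and Retnla is listed at 0 in cDC1, so its blue point sits at 1.

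Some entries share exons, and their values depend on how reads were divided. The longer entry named Nnt (mitochondrial transhydrogenase) and a second entry of that name share 3339 exonic bases. The latter was at 11.2 CPM in cDC1 and listed at 0 in CD103int DC, while the sum of both was 28.4 against 24.9 CPM. Likewise Pagr1a and Gm42742 differed in opposite directions, and their sum was 23.1 against 20.8 CPM. Outside protein-coding genes, 3 abundant entries were chosen after their values were seen. The small RNA Rn7s2, of the signal recognition particle, was at 10318, 19485, 25802 and 26042 CPM, Malat1, a nuclear noncoding RNA, at 5668, 9548, 7236 and 5785 CPM, and Gm26917 at 102435, 51111, 60806 and 118411 CPM. Rn7s2 shares 100% of its 50-base stretches with Rn7s1. By gene type, 9 of 85 compared pseudogenes and 6 of 14 small RNAs were at least 2-fold higher, and 3 and 1 lower. Over all genes compared, 9.16% were higher and 5.46% lower, so the pseudogenes lay near those shares. Chromosome medians ran from -0.06 (chromosome 16) to 0.09 (chromosome 3).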

How the data were processed

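The series deposited 1 table of 13976 mouse genes with 4 columns, 1 sorted population each. Per the labels' protocols, total RNA was taken with an RNeasy Mini column kit and DNase I, and libraries were made with a directional NEBNext Ultra II kit. The deposited values, a signal, are counts per 1000000 (CPM) on library sizes the authors scaled by TMM and filtered, as the deposited table is named. The build is not given in the sources used here, nor are the aligner and counter. Columns sum to 905670, 968810, 974649 and 1169346 (cDC1, cDC2, CD103int DC, macrophage), and no unfiltered counts were used here. Of all values above 0, 79% in cDC1 and 70.6% in CD103int DC are whole multiples of 1 read (tolerance 0.001 of a read), which gave the estimated depth but no counts to test.

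Genes needed at least 10 in the higher of both columns, and differences are of log2(value + 1). Clopper-Pearson intervals (95%) came from estimated reads and cover counting error only. With 1 library per population no test was run. Genes were matched to GENCODE M21 for type and position, and shared sequence was counted as identical 50-base stretches of exons. Of 3071 genes examined, 561 shared at least 5% of these stretches, and the share is given for only some of them. Named genes are the 25 protein-coding genes with the largest difference in each direction, members of 65 gene lists, up to 4 members per direction of each of 37 symbol families and 8 noncoding entries per direction, and genes outside this rule are marked. Some genes that the rule names are not reported here. The members and lists were chosen with earlier results of these data known. Scripts used Python 3.11.15 with pandas 2.3.3 and SciPy 1.17.1 and were tested on simulated data. Alternatives changed the scaling, the added constant, the minimum and the genes compared.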

Additional observations from a re-analysis of the deposited data

How the results depend on the processing

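With the column totals made equal, the median over all genes was -0.08, and with equal totals of protein-coding genes it was -0.15. It was also -0.15 with ribosomal protein, mitochondrial and small RNA entries left out of the totals, a setting chosen after seeing the data. Adding 5 in place of 1 before the logarithm gave 135 genes at least 4-fold higher and 81 lower. With a minimum of 1 in the higher column, and also with no minimum, 1303 genes were at least 2-fold higher and 876 lower, since more genes were compared. Of 315 named genes that could be compared under equal totals of protein-coding genes, 233 of the 237 past 2-fold stayed past it, 5 others came to pass it and 16, all within 2-fold, had the other sign. That scaling also turned the sign of 10 of 93 class medians, among them amino acid metabolism and type I interferon-stimulated genes. It moved class medians by -1.65 to -0.01. Of 27 class medians past 2-fold, 22 stayed past it with a minimum of 1 and 20 with no minimum, and class medians moved by as much as -1.51. Adding 5 before the logarithm kept 25 of these and 235 of 238 named genes past 2-fold, and moved named genes by -2.28 to 1.87. No named gene and no class median past 2-fold turned its direction under the settings run. No library could be left out, since each population had 1. No paired analysis was possible because each population had 1 library. A value at the minimum of 10 CPM rests on about 491 reads in cDC1 and 574 in CD103int DC, and the spread between animals, sorts and library preparations is not known for any value.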
